A study of Mus musculus with 61 samples.

Results

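The genes described here are the cytosolic ribosomal protein genes, taken as every gene whose symbol on the array begins with Rpl or Rps followed by a digit. Symbols beginning with Rps6k, which are kinases, and probe sets annotated to several genes were left out. This gave 73 of the 12578 genes named on the arrays, 46 of the large (60S) ribosomal subunit and 27 of the small (40S) subunit. Where a gene had more than 1 probe set, as 42 of them did, the probe set that was brightest on average over the HT_MG-430A arrays stood for it. The choice used brightness only and no comparison between samples.

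The study followed naive CD4 T cells of C57BL/6 mice through stimulation with anti-CD3 plus another antibody, which the protocol writes as anti-CD8, at 1 µg/ml of each. One arm received 25 ng/ml IL-27, a heterodimeric cytokine that acts on T cells, and the control arm is labelled ctrl. Both arms share the stimulation, the strain and the naive starting cells, and the protocol text, IL-27 included, is attached to all samples, so arm and time were read from the sample titles. On HT_MG-430A arrays each arm had 26 arrays over 18 times, 8 of them with 2 arrays per arm and 10 with 1. Times are bare numbers in the titles, taken here as hours, and were grouped into an early stage (0.5 to 4 h, 5 arrays per arm), a middle stage (8 to 20 h, 9 arrays), a late stage (25 to 42 h, 6 arrays) and a last stage (48 to 72 h, 6 arrays). A further 9 arrays of type Mouse430A_2 hold the arms at 4, 16 and 48 h, control cells at 0 h, and the samples GFPP and GFPN, whose names the labels leave unexplained. Nothing in the labels says that arrays came from separate animals or cultures, so the spread between arrays of the same arm and time could be technical only. Where stages were compared within an arm, arrays of different times served as replicates. The spread behind those p-values therefore also holds changes with time inside a stage.

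Each ribosome carries one copy of nearly every ribosomal protein, and the mRNAs for these proteins are among the most abundant in any cell. In mammals most of them begin with a C followed by a run of pyrimidines, the 5′ terminal oligopyrimidine (TOP) tract, through which mTORC1 signalling controls their translation. Naive T cells are small and quiescent, and activation brings growth, nucleolar enlargement and rapid ribosome production. Several ribosomal proteins have paralogs of more restricted or regulated use, among them Rps27l, Rpl7l1, Rpl22l1, Rpl39l, Rpl36al, Rpl3l and Rps4l.

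Promoter windows from RefSeq, build GRCm38.p6, were found for 58 of the 73 genes, 70 windows in all because some genes have several annotated starts. The sequences below are shown because these genes carry the results: Rps6, the member with the least variable signal, Rps18 and Rpl35 as abundant core genes, and the pairs Rps27 and Rps27l, Rpl22 and Rpl22l1, in which a core gene and its paralog had different time courses, with Rpl7l1, which varied most. Each line gives 40 bases before and 20 bases from the annotated start of transcription, 5′ to 3′ on the strand of the gene, and the first 8 transcribed bases are in capitals.
Rps6 (chr4:86857348-86857407, minus strand): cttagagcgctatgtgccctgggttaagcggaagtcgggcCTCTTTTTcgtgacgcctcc
Rps18 (chr17:33955646-33955705, minus strand): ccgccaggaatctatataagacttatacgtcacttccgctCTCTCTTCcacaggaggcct
Rpl35 (chr2:39005112-39005171, minus strand): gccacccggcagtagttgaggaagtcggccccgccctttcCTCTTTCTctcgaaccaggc
Rps27 (chr3:90213629-90213688, minus strand): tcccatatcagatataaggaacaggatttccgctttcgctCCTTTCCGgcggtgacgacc
Rps27l (chr9:66946046-66946105, plus strand, first of 2 windows): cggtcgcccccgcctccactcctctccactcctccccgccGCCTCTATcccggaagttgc
Rpl22 (chr4:152324396-152324455, plus strand, first of 2 windows): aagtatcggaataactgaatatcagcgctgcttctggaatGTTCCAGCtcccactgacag
Rpl22l1 (chr3:28805468-28805527, plus strand): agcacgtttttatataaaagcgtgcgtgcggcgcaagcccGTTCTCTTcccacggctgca
Rpl7l1 (chr17:46782637-46782696, minus strand): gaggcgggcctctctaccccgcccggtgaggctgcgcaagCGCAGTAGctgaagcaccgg

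At the annotated start, a C followed by 4 bases that were each C or T was found in 11 of the 70 windows (15.7%), against 2.51% of all 32851 promoter windows. The 11 genes were Rpl14, Rpl15, Rpl28, Rpl35, Rpl35a, Rpl38, Rps6, Rps10, Rps18, Rps21 and Rps27. Of the sequences above, the windows of Rps6, Rps18, Rpl35 and Rps27 begin in this way, and those of Rps27l, Rpl22, Rpl22l1 and Rpl7l1 do not. The sequences shown overstate how common this start is among core genes. Most members' windows lack it, those of the bright core genes Rpl41, Rpl23 and Rpl13 among them. The letters CGGAAG, the core bound by ETS-family transcription factors, occurred on either strand in the 300 bases around the start in 43 of 70 windows (61.4%), against 16.9% of all windows. TATAAA, searched on the strand of the gene and only in the 50 bases before the start, occurred in 1.43% of members' windows and in 2.63% of all windows. These are letter matches at annotated starts and are given as descriptions of the windows.

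The deposited values are intensities on a linear scale, and tests were run on log2(intensity + 32), on which changes of dim genes are understated. A gene entered the tests when its value lay above the array median on at least 5 arrays, which 71 of the 73 members and 7356 genes in all did. The members left out were Rpl3l (mean intensity 10.8), the striated-muscle paralog of Rpl3, and Rps4l (18.7). Array medians ranged from 28.0 to 36.6 and array maxima from 13995 to 15861. The probe sets of 35 members are listed with several genes in the Mouse430A_2 annotation, and those of 19 members carry the x suffix for probes that match other transcripts, so signal from near-identical copies and pseudogenes cannot be separated for these genes. In these bulk samples fewer cells of a type and less RNA per cell cannot be told apart, and with 6 µg of RNA taken for each sample a change in RNA per cell cannot be seen.

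A pair of control arrays stood apart in these genes, the one at 12 h by more members and also in its correlation with the others. On the control array at 12 h, 37 of the 73 members lay outside the range of the other 51 arrays, 18 below it and 19 above it. Its highest correlation with any other array over the genes tested was 0.88, against 0.978 to 0.998 for the others. Rps2, a protein of the mRNA entry site, read 450 there and 9418 to 12581 elsewhere, while its other probe sets on that array read 9715 and 9414. On the control array at 4 h, 16 members lay below all other arrays and 0 above, for example Rpl41 at 8644 against a next lowest value of 10269, and Rpl35 at 6385 against 7536. Some of the 16 were nearly level with the next lowest array, as Rpl3 at 7820 against 7821. The highest correlation of the 4 h control array with another was 0.99, within the range of the others. Some calls and counts that change without either array are given with and without it below, and others are given over all arrays only.

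By the brightest probe set of each gene, the ribosomal protein genes were bright and nearly constant. Of the 73, 65 had a mean intensity over 5000, 6 had one under 1000, and 60 were among the 100 brightest genes. Together they made up between 11.4% and 12.6% of the summed intensity of all genes on the 52 arrays. Their mean share was 12.3%, 11.9%, 11.6% and 12.0% at the early, middle, late and last stages in the IL-27 arm, and 12.2%, 12.0%, 11.5% and 12.1% in the control arm. Over the 51 arrays without the 12 h control array, the median member had a standard deviation of 0.081 on the log2 scale, against 0.42 for the other genes tested. In 52 members it was under 0.1, as in 0.59% of other genes, and in 65 it was under 0.2, as in 8.4% of other genes. Among the 100 brightest genes the 60 members had a median of 0.073, against 0.19 (0.044 to 0.64) for the 40 others. Many members lie near the brightest values of the arrays, and whether differences are compressed there was not tested. Some dimmer probe sets of the same genes moved more from the early to the middle stage in the IL-27 arm. One of Rps25 (mean 1149) differed by 0.64, against -0.02 for the one used, and one of Rpl15 (mean 801) by 0.98, against 0.08. Others were close to the one used, as for Rpl23 (mean 12134, -0.09 against -0.07).

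**Figure D1:**
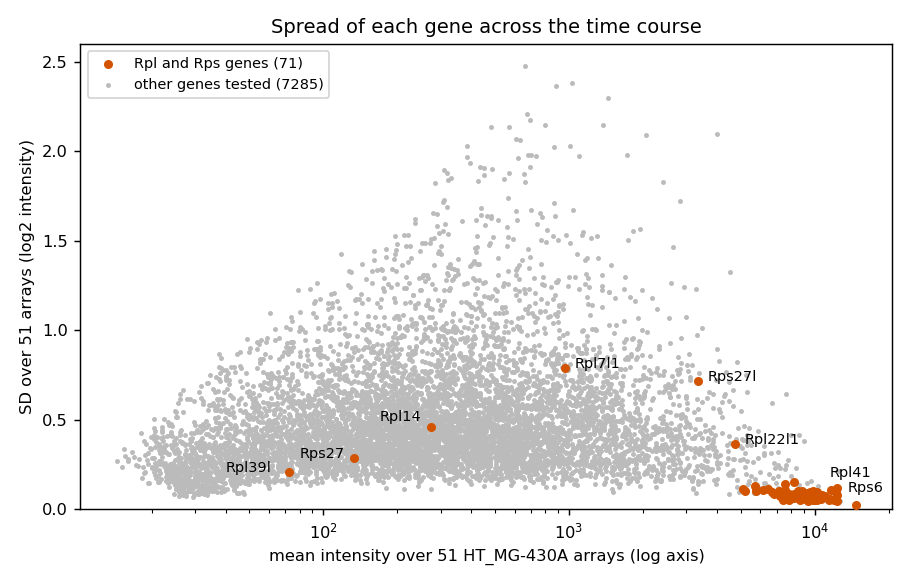
Standard deviation over 51 arrays of log2(intensity + 32), vertical axis, against mean intensity on a log axis, for each gene tested, with the 71 ribosomal protein genes in orange and the other genes in grey. Most ribosomal protein genes lie at the bright end with standard deviations under 0.1, and Rpl7l1, Rps27l, Rpl14, Rpl22l1 and Rps27 lie above the rest.

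The steadiest gene was Rps6, the 40S protein phosphorylated by S6 kinase, whose intensity stayed between 13995 and 15154 (standard deviation 0.025). Rps6 was also the brightest gene on average, and its lowest value equals the lowest array maximum, so it lies at or near the top of the scale. The most variable members were Rpl7l1 (0.79), Rps27l (0.72), Rpl14 (0.46), Rpl22l1 (0.36), Rps27 (0.29) and Rpl39l (0.21), of which 4 are paralogs of core proteins. Rpl14 and Rps27 stand here on dim probe sets, with mean intensities of 280 and 132. The 76 mitochondrial ribosomal protein genes (symbols Mrpl and Mrps), whose products build the ribosome of the mitochondrion, had a median standard deviation of 0.59 and ranged from 0.17 to 0.97. Between the arrays of the same arm and time, in 16 pairs, the median absolute difference of the members was 0.054 on the log2 scale, with a 95th percentile of 0.19.

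From the early to the middle stage, when the cells leave quiescence, the members changed in both directions and mostly by little. In the IL-27 arm 12 members rose and 24 fell of 71 tested, with a median difference of -0.015 on the log2 scale, where 39% of all genes rose and 30.4% fell with a median of 0.076. In the control arm 21 rose and 21 fell, with a median of -0.032 (-0.0098 without the 12 h control array), where 37.7% of all genes rose and 32.1% fell. All 12 members that rose in the IL-27 arm were among the 21 that rose in the control arm, 19 of the 24 that fell in the IL-27 arm were among the 21 that fell in the control arm, and 0 changed in opposite directions. The split between rises and falls depended on scaling, with 24 higher and 17 lower in the IL-27 arm and 25 and 16 in the control arm after quantile normalization. With that scaling 37.7% of all genes rose and 31.5% fell in the IL-27 arm, and 37.8% and 32.1% in the control arm. Without the 4 h control array the control arm had 15 higher and 26 lower, where 37.9% of all genes rose and 32.7% fell. Without the 12 h control array the counts were 16 higher and 27 lower in the IL-27 arm and 20 and 23 in the control arm. The shares of all genes were then 40.6% higher and 31.4% lower, and 39.9% and 32.9%.

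The subunits differed in their counts, which stand beside the shares of all genes given above. Of 26 small-subunit genes tested, 1 rose and 13 fell in the IL-27 arm and 4 rose and 12 fell in the control arm. Of 45 large-subunit genes, 11 rose and 11 fell in the IL-27 arm, and 17 rose and 9 fell in the control arm. Under quantile normalization the small-subunit counts were 3 higher and 9 lower (IL-27 arm) and 4 and 9 (control arm). The large-subunit counts were 21 and 8 in the IL-27 arm and 21 and 7 in the control arm. Falls outnumbered rises in the small subunit under both scalings while the balance of the large subunit moved. Under quantile normalization the small-subunit falls lay near the share of all genes that fell, 31.5% and 32.1%. Its rises were fewer than the share of all genes, 37.7% and 37.8%. The difference between the subunits was not itself tested.

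Among the core small-subunit genes, Rps16, a protein of the 40S head, averaged 9288 ± 348 at the middle stage (SD, n = 9) and 10692 ± 344 at the early stage (n = 5) in the IL-27 arm. In the control arm it averaged 9236 ± 304 at the middle stage and 10324 ± 758 at the early stage. The fall was -0.20 ± 0.03 in the IL-27 arm (SE, limma, adjusted p = 1.016e-06) and -0.16 ± 0.03 in the control arm (adjusted p = 6.556e-05). The same direction was called in both arms for Rps19 (-0.19 and -0.16), the gene most often mutated in Diamond-Blackfan anaemia, for Rps24 (-0.19 and -0.11), and for Rps7 (-0.14 and -0.10), whose product binds the p53 regulator MDM2. The control call of Rps24 did not pass after quantile normalization (adjusted p = 0.07011). Rps15a-ps6, a symbol of a processed pseudogene of Rps15a, fell by 0.26 and 0.17 on the log2 scale.

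Among the core large-subunit genes, falls were seen in both arms for Rpl39, the small protein lining the peptide exit tunnel (-0.32 and -0.25), and for Rpl21 (-0.23 and -0.19). Rpl39 read 7104 to 8333 at the middle stage and 9410 to 9749 at the early stage in the IL-27 arm, with no overlap. In the control arm it read 6396 to 9931 and 8774 to 9929 at these stages, which overlapped, the highest middle value being that of the 12 h array. Rises were seen for Rpl22, an RNA-binding protein of the 60S surface needed for alpha-beta T cell development (0.18 and 0.24), for Rpl7a (0.18 and 0.14), for Rpl35, at the rim of the exit tunnel (0.15 and 0.29), and for Rpl41, a very short basic peptide (0.15 and 0.30). Rpl41 averaged 12496 ± 452 at the middle stage and 11231 ± 679 at the early stage in the IL-27 arm, and 12927 ± 781 and 10565 ± 1180 at these stages in the control arm. The rises of Rpl35 and Rpl41 in the IL-27 arm did not pass under scaling to the 75th percentile. Both genes were among those lowest on the 4 h control array, and without it their control rises were 0.23 and 0.23. Rpl14, read from a dim probe set, averaged 263 ± 37.1 at the middle stage and 139 ± 17.0 at the early stage in the IL-27 arm, and 323 ± 131 and 127 ± 11.7 at these stages in the control arm. It rose by 0.78 in the IL-27 arm (adjusted p = 1.223e-06) and 1.09 in the control arm (adjusted p = 6.621e-10), and by 0.97 in the control arm without the 12 h control array.

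Rps2 showed how 1 array can hide a call. Over all 52 arrays its difference between the middle and early stages was 0.26 in the IL-27 arm (adjusted p = 0.5183) and -0.31 in the control arm (adjusted p = 0.4468). Without the 12 h control array it rose in both, by 0.26 (adjusted p = 7.69e-10) and 0.21 (adjusted p = 2.949e-07).

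**Figure D2:**
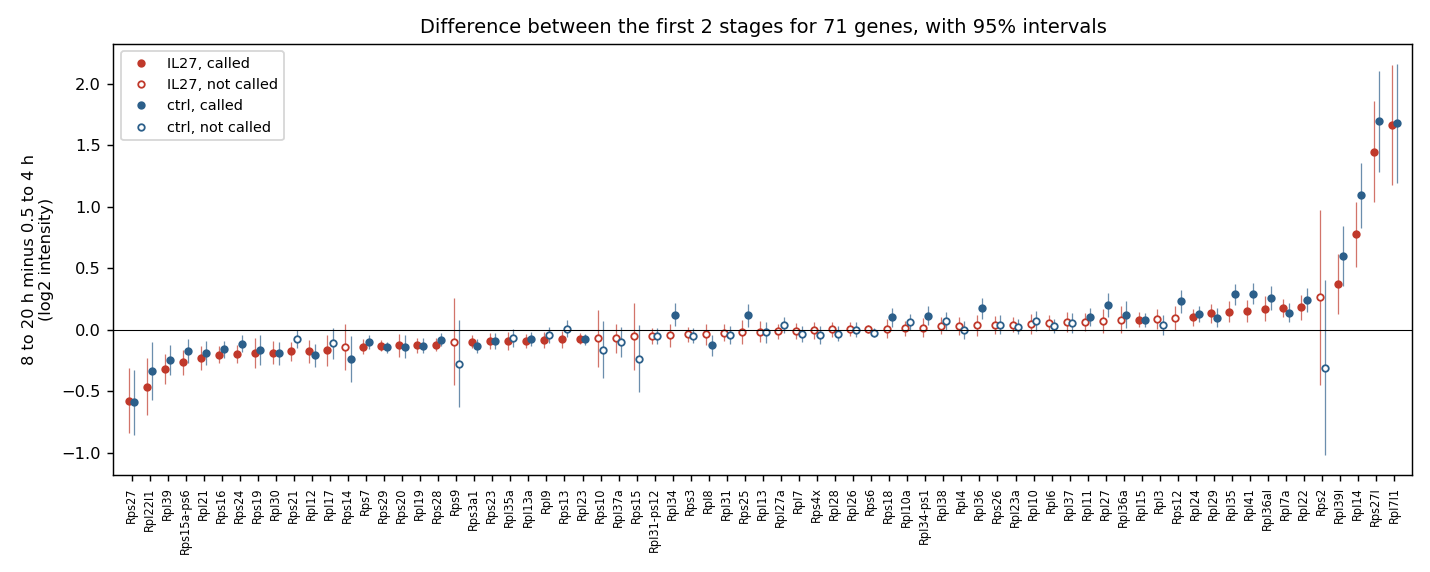
Difference between middle and early stages, log2(intensity + 32), in the IL-27 arm and in the control arm, for the 71 ribosomal protein genes tested. Filled points were called, and bars are 95% intervals. Rpl7l1, Rps27l, Rpl14 and Rpl39l are highest and Rps27 and Rpl22l1 lowest, on the same side in both arms, and Rps2, Rps9, Rps10 and Rps15 have wide intervals.

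Against this background, Rps27l and Rpl7l1 had the largest changes of all members. Rps27l, a paralog of Rps27 and a target of p53, read 629 at 0.5 h, 889 at 1 h, 1432 and 1912 at 2 h and 3076 at 4 h in the IL-27 arm, and 3441 to 4406 over the middle stage. In the control arm it read 563, 728, 2184 and 1423, and 1889 at the same early times, and 3297 to 4832 over the middle stage. The middle-stage arrays all lay above the early ones in both arms, and within the early stage the values climbed with each time except that the control values at 2 and 4 h overlapped. The difference was 1.45 ± 0.21 in the IL-27 arm (SE, limma, adjusted p = 3.206e-08) and 1.69 ± 0.21 in the control arm (adjusted p = 7.847e-10). The other Rps27l probe sets gave 1.66 and 1.98 (IL-27 and control) in one case and 1.80 and 2.04 in the other. From the middle stage on it held a plateau, with stage means of 3798 ± 268, 3670 ± 302 and 3661 ± 366 in the IL-27 arm and 3964 ± 436, 3612 ± 248 and 4166 ± 249 in the control arm.

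Rps27 itself went the other way. It averaged 121 ± 14.3 at the middle stage and 198 ± 38.0 at the early stage in the IL-27 arm, and 111 ± 28.2 and 181 ± 35.0 at these stages in the control arm. In both arms all middle-stage arrays lay below all early ones. This dim probe set fell by 0.58 in the IL-27 arm (adjusted p = 0.0001367) and by 0.59 in the control arm (adjusted p = 0.0001074). As shown above, the annotated start of Rps27 opens with a pyrimidine run and that of Rps27l with a G. Whether the starts relate to the time courses was not tested.

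Rpl7l1, a paralog of Rpl7 whose yeast relative Rlp7 takes part in assembly of the large subunit, rose and then fell. In the IL-27 arm it read 160 at 0.5 h, 239 at 1 h, 435 and 654 at 2 h and 1055 at 4 h, then 1143 to 1477 over the middle stage and 841 to 1394 over the late stage. In the control arm the early values were 172, 222, 522 and 387, and 833, followed by 1033 to 1401 and 1012 to 1281. At 72 h the arrays read 406 and 448 in the IL-27 arm and 460 and 727 in the control arm. The rise to the middle stage was 1.67 ± 0.24 in the IL-27 arm (adjusted p = 5.09e-08) and 1.68 ± 0.24 in the control arm (adjusted p = 4.026e-08). The fall between the late and last stages was -0.93 ± 0.25 (adjusted p = 0.002431) and -0.70 ± 0.25 (adjusted p = 0.02691). The control fall lost its call without the arrays with suffix d (adjusted p = 0.11) and without the 25, 30 or 72 h arrays. A second probe set gave 1.39 and 1.44 for the rise and -1.31 and -1.17 for the fall. Rpl7 itself was not called at the middle stage, at -0.01 and -0.03.

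Rpl22l1, the paralog of Rpl22, had the opposite course, a dip and then a climb. Its stage means were 4893 ± 206, 3588 ± 589, 4928 ± 578 and 6227 ± 742 in the IL-27 arm (SD, n = 5, 9, 6 and 6) and 4593 ± 541, 3698 ± 842, 4896 ± 705 and 6155 ± 434 in the control arm. All 3 steps passed in both arms: -0.46 ± 0.12 (adjusted p = 0.0005341), 0.46 ± 0.11 (adjusted p = 0.001062) and 0.34 ± 0.12 (adjusted p = 0.02183) in the IL-27 arm. The control steps were -0.33 ± 0.12 (adjusted p = 0.01005), 0.42 ± 0.11 (adjusted p = 0.002892) and 0.34 ± 0.12 (adjusted p = 0.02838). Without the arrays with title suffix d, 4 of these 6 calls did not pass: the last step in the IL-27 arm (adjusted p = 0.191) and all 3 in the control arm (adjusted p = 0.0899, 0.135 and 0.0822). With the arrays of 1 time left out, the last step lost its call without 25, 30 or 72 h in the IL-27 arm and without 25, 30, 54 or 72 h in the control arm, and the other control steps without 2 or 8 h (the dip) and without 42 h. Over the interval of the dip Rpl22 rose in both arms by its bright probe set. Its dim probe set had differences of -0.11 and -0.01, the IL-27 rise was 0.04 with the probe sets averaged (adjusted p = 0.759), and it lost its call without the 2 h arrays (0.11).

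The other paralogs were smaller cases. Rpl39l, best known from testis and dim here, rose by 0.37 in the IL-27 arm (adjusted p = 0.006067) and by 0.60 in the control arm (0.47 without the 12 h control array), while Rpl39 fell in both. Rpl36al, the retroposed copy of Rpl36a, rose by 0.17 and 0.26 and then fell by 0.15 and 0.27 on the log2 scale between the middle and late stages. Rpl36a had differences of 0.08 (adjusted p = 0.178) and 0.12 (adjusted p = 0.0445).

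**Figure D3:**
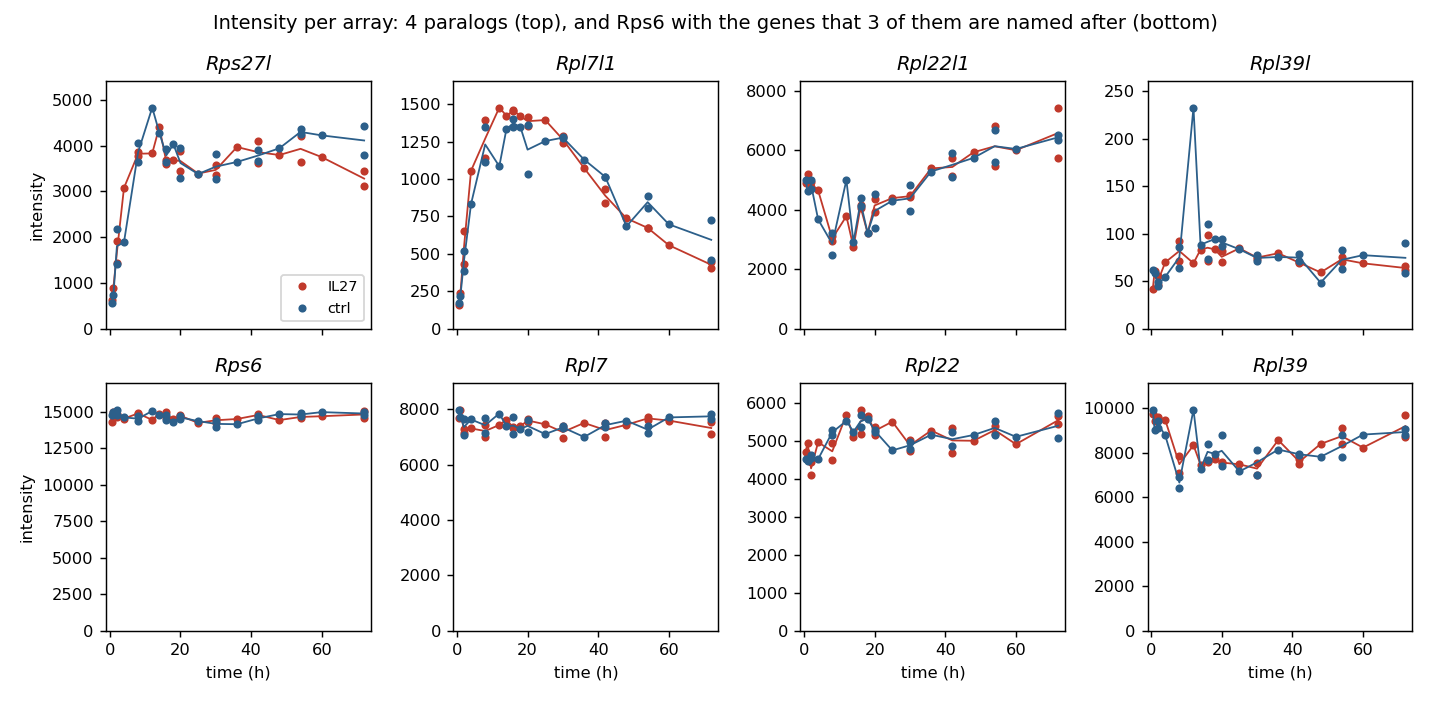
Intensity against time in hours, 1 point per array with lines through the means at each time, red for the IL-27 arm and blue for the control arm, for 4 paralogs (top) and for Rps6, Rpl7, Rpl22 and Rpl39 (bottom). Rps27l climbs within the first hours and stays high, Rpl7l1 climbs and comes down by 72 h, Rpl22l1 is low and uneven between 8 and 20 h, and Rps6 is flat between 13995 and 15154.

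From the middle to the late stage the changes were fewer. In the IL-27 arm 2 members rose and 10 fell, with a median of -0.047, where 15.8% of all genes rose and 16% fell. In the control arm 1 rose and 16 fell, with a median of -0.045, where 15.2% rose and 15.5% fell. Rpl22l1 rose in both arms, and 7 members fell in both: Rpl27, Rpl34-ps1, Rpl36, Rpl36al, Rpl37, Rpl38 and Rps29. Rpl36 averaged 6274 ± 242 at the late stage and 7045 ± 238 at the middle stage in the IL-27 arm, and 6245 ± 203 and 7336 ± 462 at these stages in the control arm. The falls were small, for example Rpl36 (-0.17 and -0.23) and Rpl27 (-0.14 and -0.18). Without the 12 h control array 2 members rose and 16 fell in the IL-27 arm, and 2 rose and 18 fell in the control arm. The shares of all genes were then 17.7% higher and 19.3% lower, and 15.8% and 17%.

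Between the late and last stages 13 members rose and 1 fell in each arm, with medians of 0.047 in the IL-27 arm and 0.068 in the control arm. The shares of all genes were 21.7% higher and 21.1% lower in the IL-27 arm, and 17% higher and 14.8% lower in the control arm. The members that rose in both arms were Rpl10a, Rpl13a, Rpl22l1, Rps15a-ps6, Rps18 and Rps3, and Rpl7l1 was the one that fell in both. These counts were fragile: after quantile normalization they were 4 higher and 2 lower in the IL-27 arm and 2 and 1 in the control arm. With that scaling 21.3% of all genes rose and 21.5% fell in the IL-27 arm, and 16.8% and 14.7% in the control arm. Without the 30 h arrays 4 and 1 members were called in the IL-27 and control arms, without the 72 h arrays 3 and 0, and without the 12 h control array 19 and 25.

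Grouped by place in the ribosome, no group had all its members called in the same direction from the early to the middle stage. Their counts stand beside the shares of all genes given above, 39% higher and 30.4% lower in the IL-27 arm and 37.7% and 32.1% in the control arm, and several lie near them. Of 11 genes tested for the 40S head, a placement known from yeast and human structures, 0 rose and 5 fell in the IL-27 arm and 3 rose and 5 fell in the control arm. The 5 that fell in both were Rps16, Rps19, Rps20, Rps28 and Rps29, and the 3 that rose in the control arm were Rps12 (0.23), Rps18 and Rps25. These 3 involve the control arrays that stood apart. On the 4 h control array Rps12 read 4342 against a next lowest value of 4888, and Rps18 9037 against 9554. On the 12 h control array Rps25 read 8619 against at most 7569.5 elsewhere. Of 10 genes at the peptide exit tunnel, 2 rose and 3 fell in the IL-27 arm and 2 rose and 2 fell in the control arm, with Rpl22 and Rpl35 higher and Rpl39 and Rpl19 lower in both. Of 5 genes on the mRNA entry side, Rps23 alone was called over all 52 arrays, lower in both arms (-0.09 and -0.09), and without the 12 h control array Rps2 was called higher in both as well. Of 15 genes tested whose human counterparts are mutated in Diamond-Blackfan anaemia, 1 rose and 8 fell in the IL-27 arm and 3 rose and 6 fell in the control arm. After quantile normalization these last counts were 5 and 6 in the IL-27 arm and 3 and 4 in the control arm, beside the shares of all genes given above for that scaling.

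Ribosomal proteins whose symbols fall outside the Rpl and Rps pattern gave a like picture. Of 5 tested (Rplp0, Rplp1, Rplp2, Rpsa and Fau), 0 rose and 3 fell in the IL-27 arm and 1 rose and 3 fell in the control arm. Fau, which encodes the 40S protein eS30 as a fusion, fell by 0.23 (adjusted p = 6.224e-05) and by 0.28 (adjusted p = 1.866e-06), and rose between the late and last stages by 0.26 and 0.22. Of 18 translation-factor and related genes with TOP mRNAs, 10 rose and 2 fell in the IL-27 arm and 9 rose and 2 fell in the control arm, with medians of 0.26 and 0.19. Their largest rises included Nap1l1, a histone chaperone (1.28 and 1.20), and Eif3l (0.94 and 0.86), while Eef1g rose by 0.32 and 0.22.

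The machinery that builds ribosomes changed by more than the ribosomal proteins. Of 30 ribosome biogenesis genes tested, 29 rose and 0 fell in the IL-27 arm and 28 rose and 0 fell in the control arm from the early to the middle stage, with medians of 1.11 and 0.94. Between the late and last stages 0 rose and 28 fell in the IL-27 arm and 0 rose and 27 fell in the control arm, with medians of -1.17 and -0.84. Gar1, of the box H/ACA particle that pseudouridylates ribosomal RNA, rose by 1.80 and 1.71, and Gnl3, the nucleolar GTPase nucleostemin, fell by 1.43 and 1.08 at the end. The 76 mitochondrial ribosomal protein genes rose in 73 cases in each arm and fell in 0, with medians of 1.26 and 1.34. Among 14 genes of mTORC1, MYC and related regulators 3 rose and 6 fell in the IL-27 arm and 4 rose and 7 fell in the control arm, with Eif4ebp1, which represses cap-dependent translation, higher (1.82 and 1.57) and Mxd4, a MAX partner that opposes MYC, lower (-2.66 and -2.89). Rpl7l1 was the only member called higher at the middle stage and lower at the last stage in both arms over all arrays, the pattern of calls that most biogenesis genes had.

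**Figure D4:**
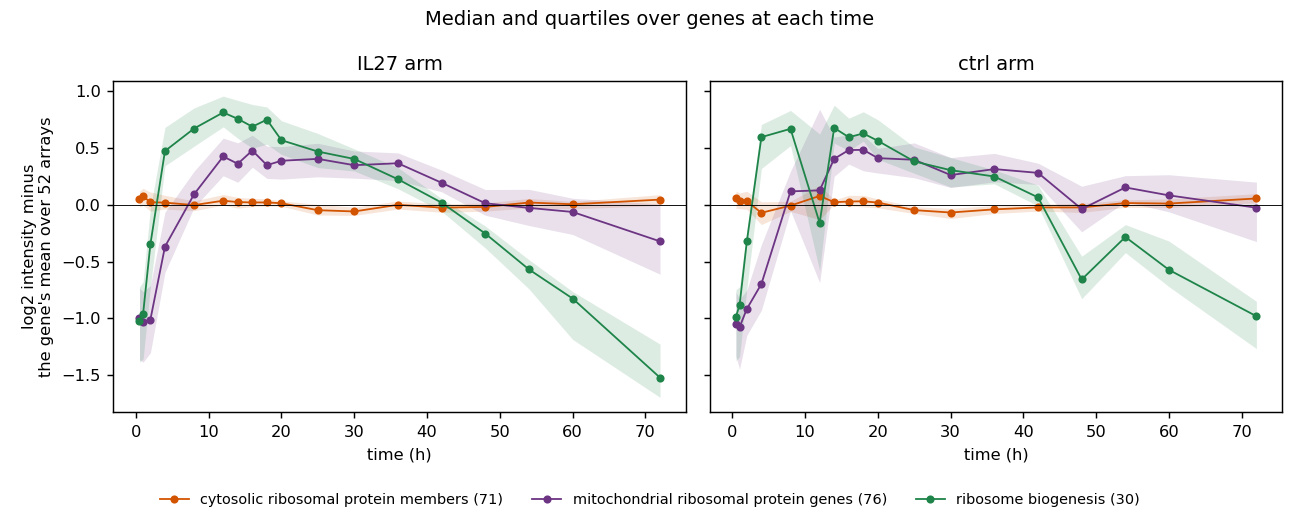
Median (line) and quartiles (band) over genes of log2(intensity + 32) minus the mean of each gene over 52 arrays, against time in hours, in the IL-27 arm (left) and the control arm (right), for 71 ribosomal protein, 76 mitochondrial ribosomal protein and 30 ribosome biogenesis genes. The ribosomal protein line stays near 0, the others climb over the first hours and decline later, and the dip at 12 h in the control arm is the array that stood apart.

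Marker genes moved with the stages too. Summed over 9 of 10 T cell marker genes, the median intensity was 20523, 15495, 14825 and 19893 at the 4 stages in the IL-27 arm and 24766, 15200, 13501 and 17319 in the control arm. Summed over 18 of 20 markers of other cell types, single arrays of the IL-27 arm lay between 872 and 2087 at the last stage and between 2464 and 6716 at the early stage. Those of the control arm lay between 1084 and 1724 at the last stage and between 2623 and 6857 at the early stage, so the sums were highest early. Most of the sum came from Ighm and Hba-a1, which reached 3468 and 3270. Of the 18 markers, 10 were too dim to be tested, among them Cd8a (between 10 and 20), Cd79a (at most 29.2), Itgam (at most 17.7) and Ncr1 (at most 17.4). Others were clearly detected on some arrays, with highest values of 858 for H2-Aa, 542 for Cd74, 313 for Cd8b1, 255 for Lyz2, 120 for Cd79b and 106 for Ms4a1. The part of these shifts in the members' stage differences was not tested.

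With IL-27 set against the control arm, the ribosomal protein genes gave almost no calls. At the early stage 0 members were called, where 1.86% of all genes were higher and 0.557% lower, and the members' median difference was 0.027 (range -0.05 to 0.19), or 0.010 without the 4 h control array. At the middle stage 0 were called, where 5.07% were higher and 6.19% lower, with a median of -0.0035. At the late stage 0 were called, where 2.58% were higher and 3.17% lower, with a median of 0.0053. At an unadjusted p under 0.05 the counts were 4, 10 and 1 of 71. At the last stage 0 were higher and 1 lower, where 10.2% of all genes were higher and 11.8% lower, with a median of -0.012.

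The intervals show how tightly the fits bound a difference in intensity. They do not account for the deviation that arrays of the same title suffix share. Many members lie near the top of the scale, where compression was not tested, so differences in transcript amount may be bounded less tightly. The 95% interval lay between -0.2 and 0.2 on the log2 scale for 58, 61, 63 and 62 of the 71 members at the early, middle, late and last stages, and within 0.5 of 0 for 70, 69, 70 and 70. Ribosomal proteins with other names also had 0 calls at any stage. Over the same last stage 7 of 30 biogenesis genes were lower with IL-27 and 0 higher, with a median of -0.27, among them Nop56, of the box C/D particle (-0.43, adjusted p = 0.005274), and 18 of 76 mitochondrial ribosomal protein genes were lower and 0 higher, with a median of -0.18.

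The member called at the last stage was Rpl7l1. Its intensity averaged 583 ± 134 with IL-27 (406 to 737) and 710 ± 144 in control cells (460 to 885; SD, n = 6 each), so the groups overlapped. The difference was -0.28 ± 0.10 (SE; 95% interval -0.47 to -0.08, adjusted p = 0.0383). It passed narrowly, and lost the call when the 16, 30, 54, 60 or 72 h arrays were left out. It also lost it without the arrays with suffix d (-0.15, adjusted p = 0.291), without the low-value filter (adjusted p = 0.0552) and with the probe sets averaged (adjusted p = 0.0509). Without the 12 h control array it was called with Rpl41 (-0.08, adjusted p = 0.0333) below and Rps21 (0.10, adjusted p = 0.0392) above the control.

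The IL-27 effect at the last stage was also compared with that at the early stage. Of the members 0 moved up and 3 moved down, where 6.73% and 6.09% of all genes did. They were Rpl7l1 (-0.44 ± 0.14, adjusted p = 0.04146), Rps27l (-0.38 ± 0.13, adjusted p = 0.04997) and Rpl41 (-0.18 ± 0.05, adjusted p = 0.009949). Without the control array at 4 h none of the 3 passed, with changes of -0.39 (adjusted p = 0.107), -0.25 (adjusted p = 0.234) and -0.14 (adjusted p = 0.0544). Without both the 4 h and the 12 h control arrays Rpl41 passed (-0.14, adjusted p = 0.0311) and the other two did not. With the arrays of 1 time left out, Rps27l lost its call at 15 of 18 times, Rpl7l1 at 9 and Rpl41 at 1.

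At single times, 22 differences passed over the 18 times, all of them at 12 h, where 22.9% of all genes were higher and 21% lower. There 16 members were higher with IL-27, led by Rps2 (4.60), Rps9 (2.28), Rps15 (1.68) and Rps10 (1.52), and 6 lower, led by Rpl39l (-1.39) and Rpl14 (-1.05). These are the members displaced on the 12 h control array, the only control array at that time. Without it there is no 12 h comparison to make, and 0 differences passed at the other times. On the Mouse430A_2 arrays, with both arms at 3 times, 0 of 6657 genes and 0 members were called by limma, 0 members had an unadjusted p under 0.05, and the members' differences ranged from -0.15 to 0.06. This fit left 2 residual degrees of freedom, so the absence of calls there says little about the members.

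**Figure D5:**
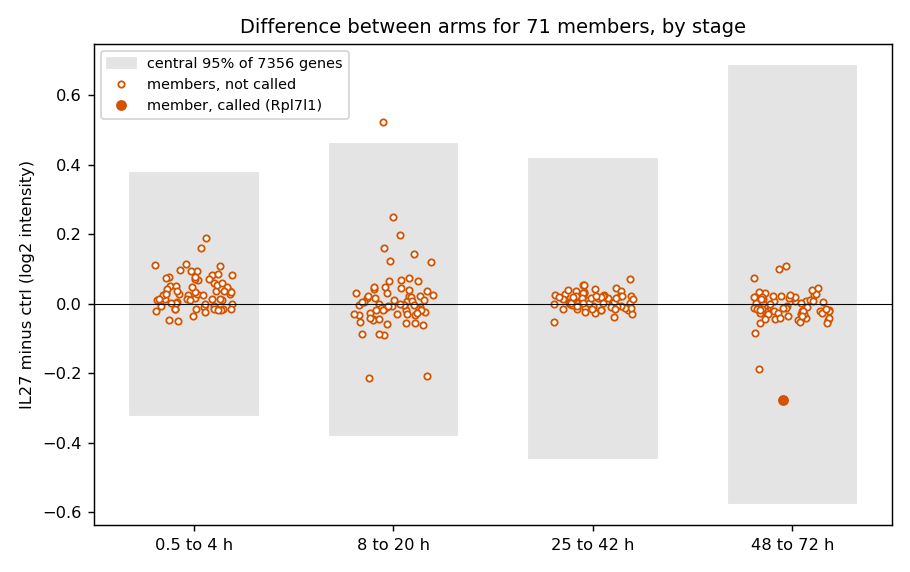
Difference between the IL-27 and control arms, log2(intensity + 32), for each of 71 ribosomal protein genes, by stage, over a grey box that spans the central 95% of all 7356 genes. The points gather around 0 at all 4 stages, the point above the box at the middle stage is Rps2 (0.52, or 0.02 without the 12 h control array), and the filled point at the last stage is Rpl7l1 (-0.28).

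The Mouse430A_2 arrays reach back to control cells at 0 h, with 1 array per point and no replicate check. Of the 73 members, 29 had an identical value on 2 or more of these arrays, as had 7999 of all 22626 probe sets. On the HT_MG-430A arrays 15 members and 902 probe sets did. Whether the processing behind such ties holds bright genes level was not tested. At 4 h, 69 of 73 members with IL-27 and 67 without lay between 0.8 and 1.25 times their level at 0 h, at 16 h 63 and 65, and at 48 h 66 and 66. The shares of all genes within these limits were 25.1% and 24.7%, 23.7% and 24.5%, and 27.5% and 26.0%. Rps27l read 1688 at 0 h, 5586 with IL-27 and 6747 without at 4 h, 5500 and 5507 at 16 h, and 5324 and 5858 at 48 h. Rpl7l1 read 609 at 0 h, 2583 and 2656 at 4 h, 2958 and 2940 at 16 h, and 1581 and 1861 at 48 h. Both were higher than at 0 h at each of the 3 times, and Rpl7l1 had come down at 48 h. Rpl22l1 read 13305 at 0 h, 11106 and 13121 at 4 h, 9660 and 9777 at 16 h, and 13654 and 13962 at 48 h, the same dip and return. Rps27 read 533 at 0 h and between 211 and 323 afterwards. Between the GFPP and GFPN arrays 72 of 73 members lay within the same limits, as did 94.5% of all genes, and the exception was Rpl39l (76.1 against 59.0).

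The members followed each other loosely. Over the 51 arrays without the 12 h control array, the correlation of a member with the mean of the others had a median of 0.39, lay above 0.5 for 24 members and below 0 for 6. The highest were Rps18 (0.86), Rpl11 (0.83) and Rpl27 (0.81), and the lowest Rpl7l1 (-0.23), Rps29 (-0.18) and Rps28 (-0.17). With the 12 h control array the median was 0.31, with 14 above 0.5 and 9 below 0. All points share the scale of their array and the order of the time course, so these values are descriptions of how alike the profiles were.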

How the data were processed

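RNA was extracted with Trizol, and biotin-labelled cRNA was made from 6 µg of total RNA, per the labels' protocols. Each of the deposited tables gives linear intensity values for 22626 probe sets. MAS5 is the only tool named, per the submitters' processing notes, with no version; the sources used here state neither scaling nor background settings, and the number of arrays and not a depth limits the precision. Intensities were used as deposited, with 32 added before log2. Medians of the HT_MG-430A arrays ranged from 28.0 to 36.6, and rescaling changed some counts, as given below. Probe sets were named from the platform annotation, 20675 to 1 gene, 440 to several (not used) and 1511 to none, and 2672 names came from the annotation of the other array type.

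Differences were fitted with limma 3.58.1 in R 4.3.3 (lmFit, and eBayes with a mean trend) over all genes tested, and p-values were adjusted by the Benjamini-Hochberg method over all genes of a comparison. A call is an adjusted p under 0.05. IL-27 minus control was fitted with each time as a factor, so both arms were compared within times. Stages were compared within each arm by their means, with no term for the times inside a stage. The scripts were tested on simulated data. Alternatives were the added constant, the low-value filter, the choice of probe set, the scaling, left-out arrays or times, and arrays whose titles end in d, a suffix not explained in the labels. The members, gene lists and stages were chosen with earlier results of these data known. Members named with values are up to 6 called in each direction per comparison, by size, plus the paralogs and the genes they are named after; other members were named after their values were seen.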

Additional observations from a re-analysis of the deposited data

Results flagged for a closer look

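For 3 genes the IL-27 effect at 48 to 72 h differed from that at 0.5 to 4 h by a direct test of the change (limma, Benjamini-Hochberg): Rpl7l1 (-0.4356, adjusted p = 0.04146), Rps27l (-0.3774, adjusted p = 0.04997) and Rpl41 (-0.1783, adjusted p = 0.009949). Each had a single control array at 4 h among its early values, on which 16 ribosomal protein genes were lower than on all other arrays. Without that array the changes were -0.39 (adjusted p = 0.107), -0.25 (adjusted p = 0.234) and -0.14 (adjusted p = 0.0544). Without it and the 12 h control array Rpl41 passed (adjusted p = 0.0311).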

How the results depend on the processing

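Counts of members called are compared here with 0 (IL-27 minus control, early, middle and late), 1 (last), 3 (change of the effect, last minus early), 36, 12 and 14 (IL-27 arm, successive stages), 42, 17 and 14 (control arm) and 22 (single times). A constant of 1 or 100, or leaving out probe sets with the s or x suffix, moved no count by over 1.5 times. Without the low-value filter the last, change, IL-27 last-minus-late and control last-minus-late counts were 0, 1, 8 and 6. With each gene as the average of its probe sets, the last, change and IL-27 late-minus-middle counts were 2, 1 and 24, and Rps18 in the control arm, last minus late, reversed to -0.0492; the cause was not tested. Quantile normalization gave 1 (middle), 3 (last), 6 and 3 (last minus late, IL-27 and control arms), and 75th percentile scaling 3 (middle) and 48 (single times, 14 higher and 34 lower). Without the arrays with suffix d, and so with fewer arrays, the counts were 0 (last), 1 (change), 3 and 2 (IL-27 arm, late minus middle and last minus late) and 11 and 2 (control arm). Without the 12 h control array they were 3 (last), 25 (control arm, last minus late) and 0 (single times). Every single-time count without that array lacks the 12 h comparison, which has no other control array. Alternatives chosen after seeing the data were leaving out the 4 h control array, with 1 (middle), 2 (last) and 0 (change), leaving out it and the 12 h one, with 1 (middle), 3 (last), 1 (change), 19 and 22 (IL-27 arm, late minus middle and last minus late), 27 (control arm, last minus late) and 0 (single times), and an annotation in which both tables name 1 gene, which kept 46 members and so gave 22, 7 and 8 in the IL-27 arm and 26, 10 and 7 in the control arm. Leaving out 1 time at once gave ranges of 0 to 0, 0 to 2, 0 to 0 and 0 to 3 for the 4 stages of IL-27 minus control, 0 to 3 for the change, 30 to 43, 8 to 15 and 3 to 19 in the IL-27 arm, 35 to 44, 13 to 23 and 0 to 25 in the control arm, and 0 to 0 on Mouse430A_2 arrays. With the title suffix as a replicate block the counts were 2 (last) and 34 (single times), and no other count moved by over 1.5 times. Same-suffix arrays of the arms deviated together at 7 of 8 times (correlations over 0.1, up to 0.763) but not at 30 h (-0.016). The main fits did not take the suffixes as a pairing, so their p-values do not account for this shared deviation. No group has more than 2 arrays at a time, so the spread behind single times is pooled over times.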
